A study of Mus musculus with 2 samples.

Results

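Of the 59 genes that encode Rab GTPases in the mouse, 47 were detected in both of 2 libraries from layer 5 pyramidal neurons, the large excitatory projection neurons of the deep cerebral cortex. A few broadly acting trafficking Rabs, together with the vesicle genes Rab3a and Rab3b, held most of the family's RNA. Members were the protein-coding genes whose symbol is Rab, a number and at most 2 further characters, 59 of 21474 protein-coding genes and of 43346 gene identifiers in all. This name pattern took 63 protein-coding or antisense symbols, of which the antisense genes Rab10os and Rab26os and the partner genes Rab3ip and Rab5if were left out. The choice used names only and no measured value, though earlier results of these data were known when it was made.

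Both libraries belonged to 1 group. Each started from 50 pooled cells that were cut out by laser capture. The mice were wild-type males, 8 months of age, and RNA over 200 nt was used with added spike-ins. The strain is given as B6NCrl, C57Bl5 and C57Bl6 in different fields, the antibody field reads Control, and the series has no second condition. The libraries are labelled biological replicates 1 and 2 but carry the same donor identifier, so the spread between them may be partly technical, and every SD below is over these 2 libraries (n = 2).

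Rab proteins are small GTPases that switch between an active GTP-bound and an inactive GDP-bound form and give each membrane compartment its identity. Exchange factors (GEFs) load GTP, activating proteins (GAPs) speed its hydrolysis, and GDP dissociation inhibitors lift the inactive protein, through its lipid anchor, off the membrane. Active Rabs recruit effectors such as tethers, motors and lipid enzymes. In neurons they are best known for synaptic vesicle release, for endosomal traffic in dendrites and axons, and for transport from the Golgi.

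Replicate 1 held 24171434 estimated reads and replicate 2 held 27946180, of which spike-ins took 4.28% and 5.32%. All 8 glutamatergic and all 8 layer 5 markers listed for the check of the labelled cell type were detected in both libraries. Markers of other cells were detected too. The glutamatergic markers summed to 625.8 TPM in replicate 1 and 804.4 in replicate 2. The 11 interneuron markers summed to 3937 TPM in replicate 1 and 1534 in replicate 2, of which Sst alone gave 2506 and 844.4. The 9 microglial markers summed to 151.2 and 58.7 TPM. The 8 layer 5 markers came to 2372 and 4856 TPM, of which Pcp4 alone gave 2134 and 4468. The 5 markers of red blood cells summed to 7.59 and 384.0 TPM, the 8 of astrocytes to 431.7 and 485.3 and the 8 of oligodendrocytes to 549.8 and 673.1.

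Rab genes as a family stood at a higher level than coding genes in general. TPM is a level scaled by effective transcript length and by depth, and detection was set at 1 TPM. The 47 members detected in both libraries were 79.7% of the family, against 52.2% of all protein-coding genes. In replicate 1 alone 51 members were detected and in replicate 2 alone 47. The median member stood at 18.0 TPM in replicate 1 and 15.51 in replicate 2 (16.75 ± 1.76, SD, n = 2), while the median coding gene stood at 2.02 and 1.84 TPM. At 10 TPM or more in both libraries there were 34 members, 57.6%, against 28.1% of coding genes. Together the 59 genes held 3613 and 3972 TPM.

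The level was uneven within the family. The 5 highest members, Rab6a, Rab3a, Rab2a, Rab11a and Rab1a, held 40.26% of the Rab TPM in replicate 1 and 43.89% in replicate 2 (42.07% ± 2.57, SD, n = 2). The 10 highest held 67.07% ± 0.27, and they were the same 10 genes in both libraries, with Rab11b, Rab3b, Rab7, Rab14 and Rab5a as the others. At 100 TPM or more in both libraries there were 10 members. Within this order most neighbours could not be told apart: of 53 steps between genes next to each other, 12 were larger than the SD over the libraries. Near the top these were the steps from Rab2a to Rab11a, from Rab7 to Rab14, from Rab14 to Rab5a and from Rab5a to Rab18.

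**Figure D1:**
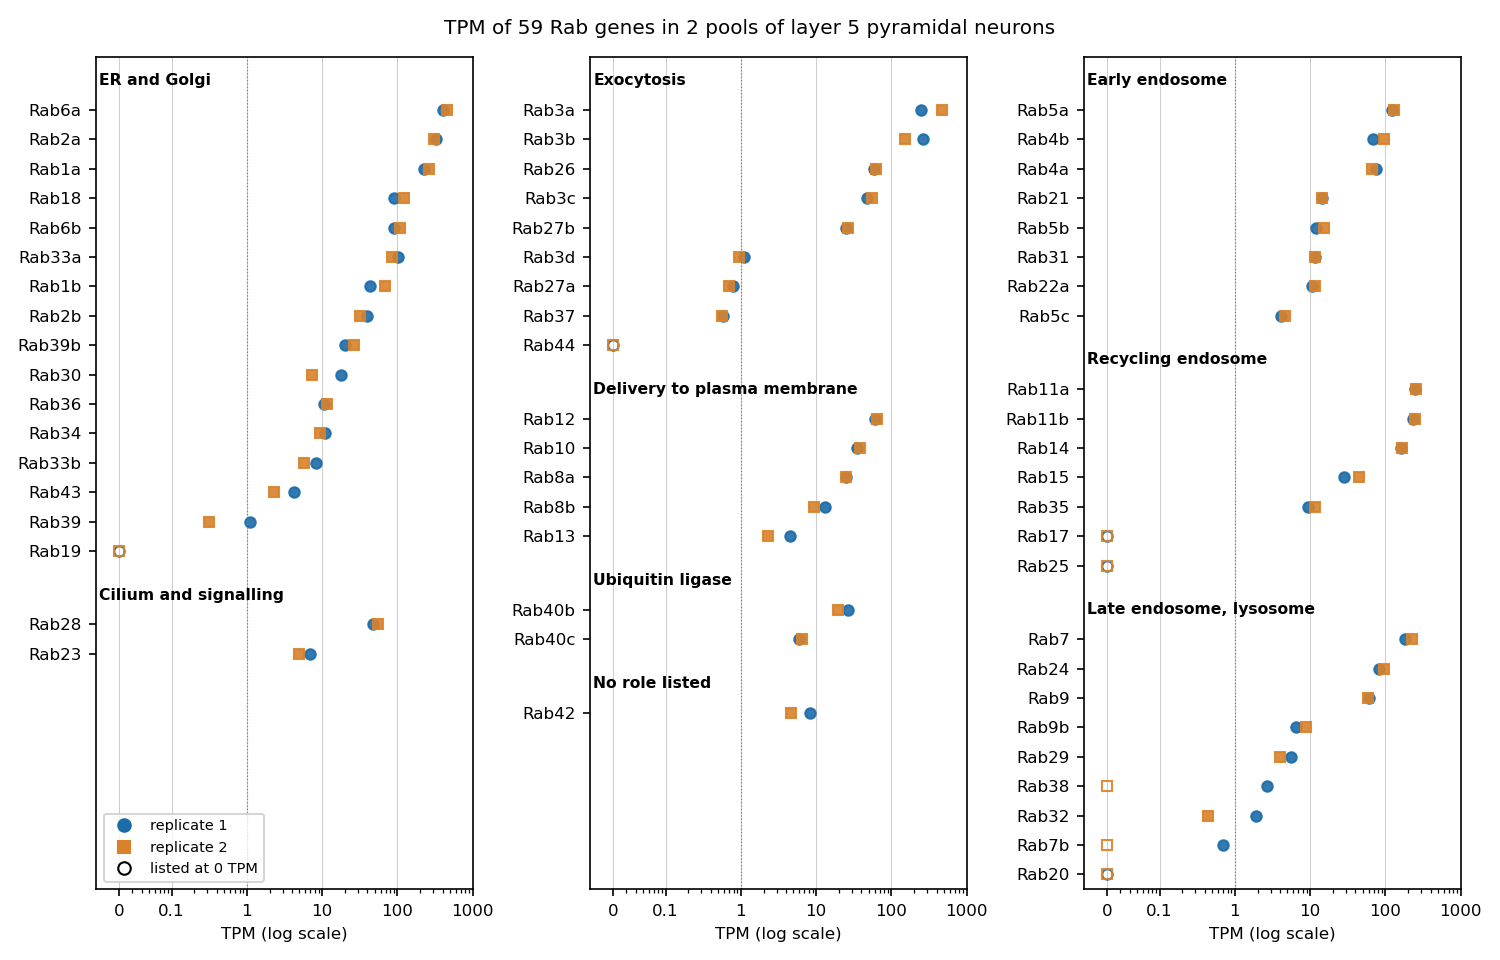
TPM on a log scale for the 59 Rab genes, grouped by the membrane step at which each is best known to act, with replicate 1 as circles and replicate 2 as squares; open symbols at the left edge are genes listed at 0 TPM, and the dotted line marks 1 TPM. Rab6a, Rab3a and Rab2a lie farthest right by mean TPM, Rab3a and Rab3b are split between the libraries in opposite directions, and Rab17, Rab19, Rab20, Rab25 and Rab44 have no read in either.

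Genes of the endoplasmic reticulum (ER) and the Golgi were the largest group, with 38.28% ± 0.50 of the Rab TPM over 16 genes. Rab6a, which acts in Golgi transport and retrograde traffic, was the highest member of the family by mean TPM (gene at chr7:100607410-100641268, GRCm38). Its level was 404.1 TPM in the first library and 454.6 TPM in the second, above 98.6% and 98.8% of coding genes. Rab2a, which acts between the ER and the Golgi, had 328.9 and 310.1 TPM. Rab1a, needed for ER to Golgi transport, had 225.5 and 261.9 TPM. The libraries differed little in all 3. Rab18, linked to lipid droplets and the ER, had 89.0 and 121.4 TPM, and Rab6b, the form of Rab6 known for neuronal expression, had 88.9 and 109.6 TPM. Rab33a, a Golgi-linked gene on the X chromosome, had 102.5 and 85.5 TPM. Rab1b followed with 43.9 and 67.6 TPM and Rab2b with 39.4 and 32.3 TPM. Rab39b, an X-linked gene whose human counterpart is mutated in intellectual disability with parkinsonism, had 20.4 and 26.6 TPM. Of the 16 genes, 14 were detected in both libraries, 10 of them at 10 TPM or more. Rab36, Rab34, Rab33b and Rab43 lay between 2.33 and 11.5 TPM, and Rab19 had no read.

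Among the 9 genes of exocytosis and secretory granules, levels fell into a high and a near-silent set. The group held 18.57% ± 0.89 of the Rab TPM. Rab3a, the main Rab of synaptic vesicles, had 250.6 TPM in the first library and 464.4 TPM in the second. Rab3b, a second Rab3 of secretory vesicles, stood at 263.4 and 152.5 TPM. The 2 genes were therefore close together in replicate 1 and far apart in replicate 2. Rab26, which links synaptic vesicles to autophagy, had 59.7 and 62.6 TPM, Rab3c had 47.0 and 54.7 TPM, and Rab27b, a Rab of vesicle docking, had 25.3 and 26.3 TPM. Rab3d had 1.10 and 0.94 TPM, Rab27a, known for melanosome and granule transport, had 0.78 and 0.70 TPM, and Rab37 had 0.58 and 0.57 TPM. Rab44 had no read.

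Recycling Rabs held 18.44% ± 0.27 of the Rab TPM over 7 genes, which did not differ from the exocytic share beyond the spread. Rab11a, which drives recycling of receptors to the cell surface, had 245.4 and 251.9 TPM, and Rab11b had 230.3 and 250.2 TPM. Rab14, which acts between endosomes and the Golgi, had 160.1 and 166.2 TPM. All 3 were close between the libraries. Rab15 had 27.89 and 45.04 TPM and Rab35, a Rab of fast recycling, 9.44 and 11.56 TPM. Rab17 and Rab25, both best known in polarised epithelia, had no read in either library. A count of 0 allows up to 3 reads, which covers counting error only.

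Early endosomal Rabs took 8.84% of the Rab TPM, and all 8 were detected in both libraries. Rab5a, which governs fusion of early endosomes, had 123.0 and 131.1 TPM. Its paralogs were much lower, Rab5b with 11.92 and 15.51 TPM and Rab5c with 4.09 and 4.69 TPM. Rab4a and Rab4b, Rabs of fast recycling from early endosomes, had 75.3 and 65.9 TPM, and 68.6 and 96.3 TPM. Rab21, Rab31 and Rab22a lay between 10.44 and 14.56 TPM in both libraries.

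Late endosomal and lysosomal Rabs took 9.74% ± 0.30 of the Rab TPM, and 5 of 9 genes were detected in both libraries. Rab7, the main Rab of late endosomes and lysosomes, had 184.7 and 228.4 TPM. Rab24, linked to autophagy, had 81.4 and 95.7 TPM, and Rab9, which returns cargo from late endosomes to the Golgi, had 60.6 and 58.1 TPM. Rab9b had 6.57 and 8.75 TPM. Rab29, which binds the kinase LRRK2, had 5.59 and 3.96 TPM. Rab32 and Rab38, Rabs of lysosome-related organelles, and Rab7b were low and seen mainly in replicate 1. Rab20 had no read.

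Genes of the remaining groups took smaller shares of the Rab TPM, 3.67% ± 0.18 for the 5 of plasma membrane delivery. Rab12 had 60.6 and 65.3 TPM, Rab10, a substrate of LRRK2 that acts in plasma membrane delivery, 34.6 and 38.6 TPM, and Rab8a, a Rab of exocytic and ciliary transport, 24.6 and 25.2 TPM. Rab8b had 13.05 and 9.32 TPM and Rab13, a Rab of epithelial junctions, 4.45 and 2.28 TPM. Rab28, a gene of cilia, had 47.0 and 55.3 TPM, while Rab23, an inhibitor of hedgehog signalling, had 6.85 and 4.91 TPM. Rab40b, which pairs with a ubiquitin ligase, had 26.3 and 19.7 TPM, and Rab40c had 6.01 and 6.41 TPM. Rab42, for which no role was listed, had 8.31 and 4.65 TPM.

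Many Rabs come as paralogs that share most of their sequence, so paralogs were set side by side to see which copy stood higher. Within each library the log2 ratio of (TPM + 1) was taken for 20 pairs, and an order was called where both libraries had the same sign and the mean exceeded the SD. This held for 15 pairs, and in 12 of them the mean ratio was at least 4-fold. The widest gap was Rab3a over Rab3d, 6.91 in replicate 1 and 7.91 in replicate 2 on the log2 scale (7.41 ± 0.71, SD, n = 2). Rab26 stood over Rab37 by 5.30 ± 0.05 and Rab5a over Rab5c by 4.57 ± 0.05. Rab27b stood over Rab27a by 3.94 ± 0.08, and Rab39b over Rab39 by 3.87 ± 0.74. Rab33a exceeded Rab33b by 3.59 ± 0.14, and Rab5a exceeded Rab5b by 3.13 ± 0.19, close to the 3.13 ± 0.14 of Rab2a over Rab2b. Rab9 over Rab9b, both on the X chromosome, came to 2.81 ± 0.30. Smaller gaps were Rab3a over Rab3c at 2.73 ± 0.48, Rab1a over Rab1b at 2.14 ± 0.28 and Rab6a over Rab6b at 2.11 ± 0.09. The gaps of Rab40b over Rab40c at 1.72 ± 0.34, Rab5b over Rab5c at 1.44 ± 0.14 and Rab8a over Rab8b at 1.11 ± 0.34 were under 4-fold. By coding transcripts of replicate 1 alone, Rab40b over Rab40c was 3.90, against 1.96 by whole-gene TPM in that library. Rab26 over Rab37 was 4.48 by coding transcripts, against 5.26 by whole-gene TPM there, a shift larger than the SD over the libraries. A fold near the 1 TPM pseudocount is understated on this scale.

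**Figure D2:**
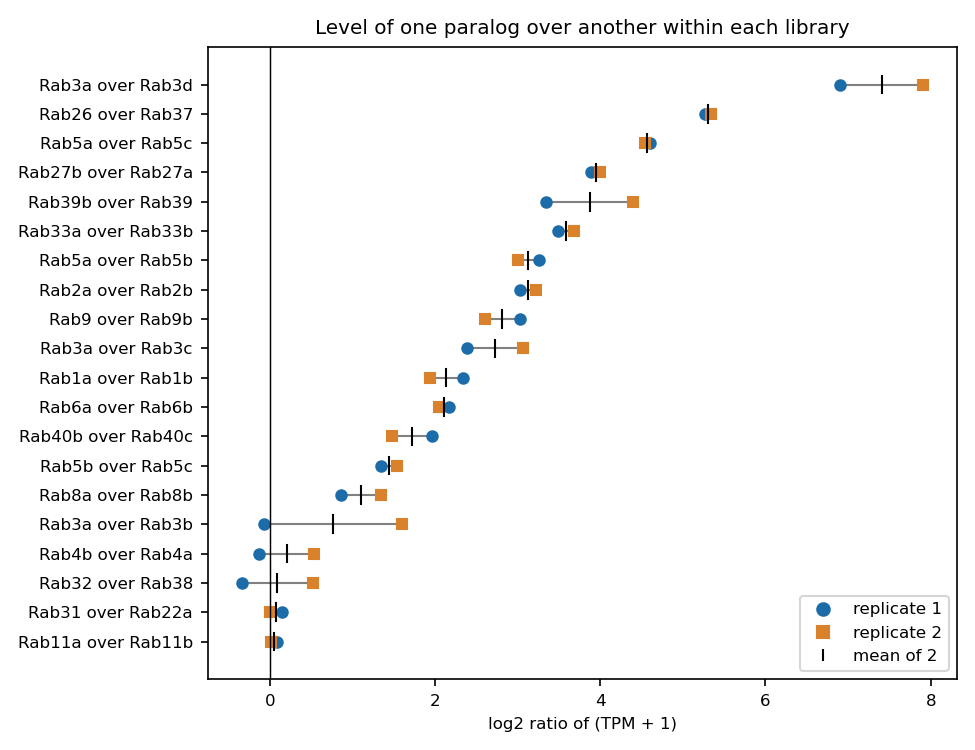
Log2 ratio of (TPM + 1) of the higher over the lower paralog for 20 pairs, with replicate 1 as circles, replicate 2 as squares and the mean of the 2 libraries as a black tick. Rab3a over Rab3d is widest at 7.41, and 5 pairs at the bottom cross or touch 0 within their spread.

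No order was called for 5 pairs. Rab11a and Rab11b differed by 0.05 ± 0.06 and Rab31 and Rab22a by 0.08 ± 0.10 on the log2 scale. Rab4a led in replicate 1 and Rab4b in replicate 2, and the same change of leader was seen for Rab3b and Rab3a and for Rab38 and Rab32. For Rab3a over Rab3b the ratio was -0.07 in replicate 1 and 1.60 in replicate 2. Scale matters for Rab3c, whose leading transcript is 8500 nt long: it had 7891 and 10280 reads against 6424 and 13319 for Rab3a, so that Rab3a over Rab3c, 2.73 per length, came to 0.04 ± 0.47 in reads.

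The coding sequences show how far such copies differ and whether reads can tell them apart. A stretch of 60 coding bases, aligned across the Rab3 genes, is printed 5′ to 3′ with bases that differ from Rab3a in capitals. It lies in the switch region that senses the bound nucleotide. Transcript sequences are from GENCODE and the stretch starts at coding base 220 in Rab3a, Rab3b and Rab3d and at base 244 in Rab3c, counted from the A of the start codon.
Rab3a: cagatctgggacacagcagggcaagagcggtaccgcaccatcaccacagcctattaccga
Rab3b: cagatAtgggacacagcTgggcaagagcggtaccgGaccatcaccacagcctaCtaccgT
Rab3c: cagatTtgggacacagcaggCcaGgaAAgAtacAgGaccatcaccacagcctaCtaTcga
Rab3d: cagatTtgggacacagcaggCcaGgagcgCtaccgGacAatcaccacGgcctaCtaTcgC
Within this stretch Rab3b differs from Rab3a at 5 bases and Rab3c and Rab3d at 10 each. Over the whole coding sequence identity to Rab3a was 72.7% for Rab3b, 73.3% for Rab3c and 75.0% for Rab3d. The longest run that Rab3a shares with Rab3b is 17 bases. Among the 20 pairs the longest shared coding run was 38 bases, between Rab1a and Rab1b, followed by 35 bases between Rab5a and Rab5b. Coding identity over the pairs ran from 54.5% for Rab26 and Rab37 to 78.4% for Rab6a and Rab6b. The lowest value compares sequences of unequal length, 885 bases for Rab26 and 669 for Rab37. Transcripts with that Rab26 sequence held 0% of the gene's TPM in replicate 1, where the leading transcript codes over 780 bases. The part of length in the 54.5% was not tested.

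Read assignment within the family was close to unique by the deposited measure. The posterior standard deviation of the estimated reads was at most 0.534% of the count among the 41 members at a mean of at least 10 CPM (counts scaled to library size). Some members overlap other genes. Rab24 shares 54.4% of its 31-base words with Prelid1 on the opposite strand. Rab2b shares 56.4% with Gm43766 on the opposite strand, which has no entry among the gene identifiers matched here. Tox4, also on that strand, came next among the genes that share words with Rab2b. The posterior standard deviation for Rab24 was 0 in both libraries. Rab4b shares 62.6% of its words with Gm21983 on the same strand, to which 0 reads were assigned. Rab43 shares 74.8% with Gm45140 on the same strand, which has no entry among the gene identifiers matched here. The posterior standard deviation of Rab43 was 0 in both libraries, which cannot speak to reads shared with a gene that has no entry. The same limit holds for Rab7, which shares 16.28% of its words with other genes on the same strand, Rab7-ps1 first among them. Rab7-ps1 has no entry among the gene identifiers matched here. Rab11b shares 10.95% of its words on the same strand, and its pseudogene Rab11b-ps2 had 44 and 49 reads. Rab10 and its antisense gene Rab10os had the same posterior standard deviation in both libraries. In replicate 1 it was 1.26 reads, of 2362 and 205 reads, and in replicate 2 it was 1.85 reads, of 2945 and 534. Strand use in counting is not given in the sources used here. Besides Rab24, Rab2b and Rab10, that limit holds for other members with opposite-strand neighbours. Among them, Rab6a shares 18.3% of its words with Mrpl48. The highest share with a single opposite-strand gene was 24.01% for Rab20, 17.7% for Rab33b and 17.2% for Rab39b. The posterior standard deviation for Rab6a was 0.106% of its count in replicate 1.

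Most Rab RNA came from transcripts annotated as protein-coding. In the transcript table of replicate 1, 49 of 51 members at 1 TPM or more had a protein-coding leading transcript. In 43 of them, 84.3%, protein-coding transcripts held at least 90% of the gene's TPM, against 67.1% of 11973 coding genes at that level. Rab6a was almost a single form, with Rab6a-201 at 97.4%. Only Rab8a, Rab23 and Rab40c had under 50% in coding transcripts, 5.88% of members against 13.2% of those coding genes. Of the 51 members, 19 have 1 transcript listed, a coding one, so their coding share was fixed by the annotation. How many of the 11973 coding genes have 1 transcript was not counted. These shares therefore cannot set Rab RNA apart from that of other genes.

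**Figure D3:**
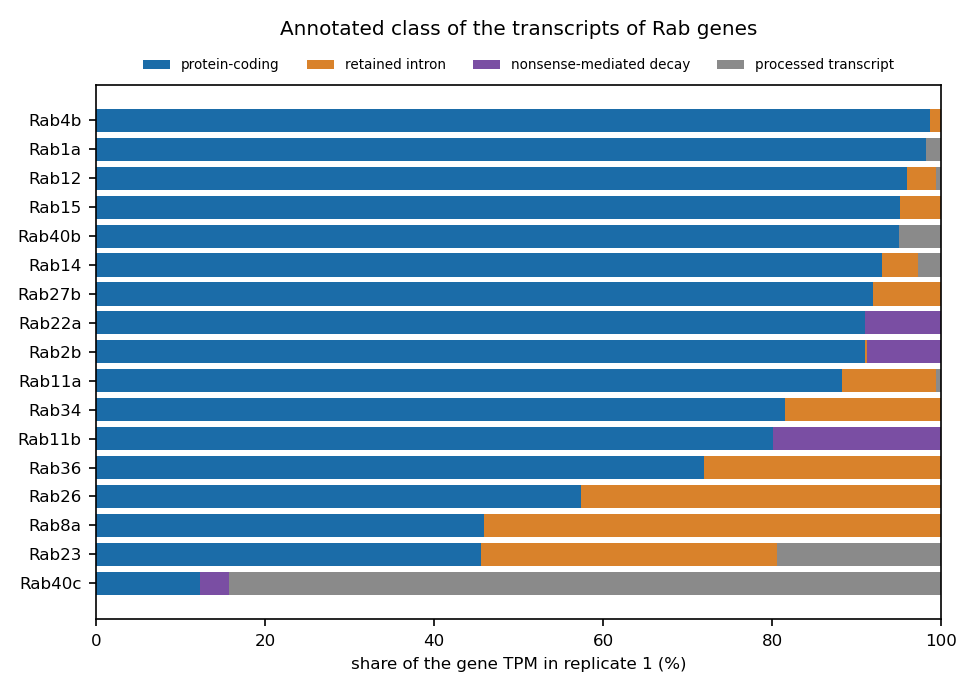
Share of the gene's TPM in replicate 1, in percent, held by transcripts of each annotated class, for the 17 Rab genes at 1 TPM or more with a protein-coding share under 99%. Rab40c is almost all processed transcript, retained introns take most of Rab8a and 42.6% of Rab26, and transcripts subject to nonsense-mediated decay take 19.9% of Rab11b.

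In Rab40c the processed transcript Rab40c-205 held 84.3%, and coding transcripts 12.3%. In Rab8a the retained-intron transcript Rab8a-202, which is 542 nt long, held 54.1%, leaving 11.31 TPM in coding transcripts. By coding transcripts of replicate 1 alone, Rab8a then stood 0.19 below Rab8b on the log2 scale, where by whole-gene TPM it stood above. Rab23 had 35.1% in retained-intron transcripts, Rab26 42.6%, Rab36 28.1% and Rab34 18.5%. For 2 of the highest members, chosen after their values were seen, the leading form was a short one. Rab1a-202 held 67.1% of Rab1a and has a coding sequence of 378 bases, against 615 bases in Rab1a-206. Rab11b-203 held 74.1% of Rab11b and codes over 579 bases, against 654 in Rab11b-201, which held 5.98%. Such shares are estimates from short reads of 1 library, with no replicate.

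Levels were also compared between the libraries. For the 41 of 59 members that passed a mean of at least 10 CPM, the log2 ratio of (CPM + 1) in replicate 1 over replicate 2 was taken, with no p-value since each side is 1 library. Past 2-fold lay 1 member, Rab30, while 4.46% of 9190 genes did so. It was higher in replicate 1, where 2.6% of genes were past the limit, and no member was past it on the side of replicate 2, where 1.86% of genes were. The median absolute log2 ratio was 0.23 for the members and 0.26 for all genes. Within 1.5-fold were 36 members, 87.8%, against 83.1% of all genes. The ratio was below 0 in 28 members, 68.3%, against 53.1% of all genes. With library sizes from spike-in totals it was below 0 in 8 of the 41 members, a share close to the 19.6% of all genes.

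**Figure D4:**
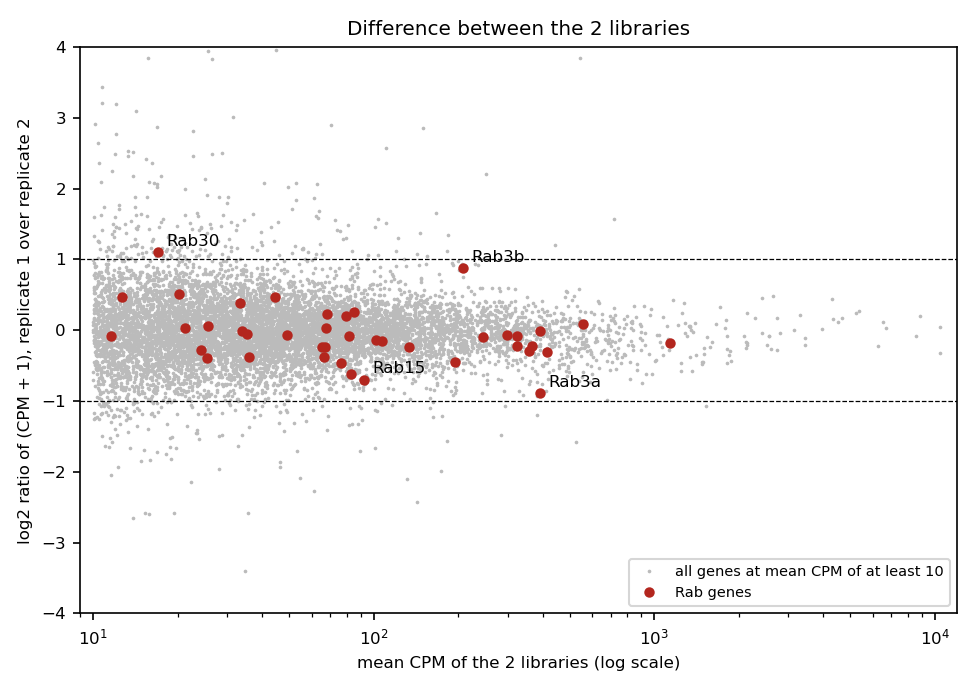
Log2 ratio of (CPM + 1), replicate 1 over replicate 2, against the mean CPM on a log scale, for 9190 genes in grey and 41 Rab genes in red, with dashed lines at 2-fold; 14 genes lie outside the axes. Rab30 is past the upper line, Rab3b is just below it at 0.88 and Rab3a just above the lower line at -0.89.

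Rab3a and Rab3b, despite their depth, were the next most different members and went opposite ways. Rab3a had 6424 reads in replicate 1 and 13319 in replicate 2, and its CPM was 1.855 times higher in replicate 2 (95% interval 1.80 to 1.91, exact conditional binomial, counting error only). Rab3b had 6316 and 3837 reads, and its CPM was 1.84 times higher in replicate 1 (1.77 to 1.92). The posterior standard deviation of the Rab3b count was 0.0279% and 0.0425% of the count. Moving in the direction of Rab3b, 5 of 9 tested interneuron markers were past 2-fold higher in replicate 1, and none was past 2-fold higher in replicate 2. Lhx6 of that list leaned towards replicate 2, with a log2 ratio of -0.13. Moving in the direction of Rab3a, 3 of 8 layer 5 markers, Pcp4, Etv1 and Fezf2, were past 2-fold higher in replicate 2, while Crym and Bcl11b of that list leaned towards replicate 1 with log2 ratios of 0.31 and 0.27. Also past 2-fold higher in replicate 2 were 3 of 3 tested red blood cell markers and the mural gene Vtn. Mural genes below the 10 CPM limit were split. Acta2 had 391 reads in replicate 1 and 8 in replicate 2, while Kcnj8 had 7 and 128 and Pdgfrb 3 and 126. The part of these cells in the Rab3 values was not tested, and the marker lists were chosen with earlier results of these data known. In pooled cells, fewer cells of a type and less RNA per cell cannot be told apart.

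Rab30, a Golgi Rab, had 18.0 and 7.41 TPM in replicates 1 and 2, from 552 and 273 reads. Its CPM was 2.26 times higher in replicate 1 (1.95 to 2.62). Rab15 and Rab1b leaned the other way, with log2 ratios of -0.70 and -0.62. Below the 10 CPM limit differences were larger, as they were for genes in general: at a mean of at least 1 CPM, 4 of 53 members lay past 2-fold, against 10.4% of 14331 genes. The 4 were Rab30, Rab32, Rab38 and Rab39, all higher in replicate 1. Rab38 had 73 reads in replicate 1 and 0 in replicate 2, for which the exact 95% interval puts the CPM ratio at 21.6 or more. Rab32 had 76 and 20 reads, a CPM ratio of 4.25 (2.57 to 7.34), and Rab39 63 and 20 reads, a ratio of 3.52 (2.10 to 6.15). Rab7b had 21 and 0 reads, a ratio of 5.82 or more by the same interval. Microglial markers were higher in replicate 1 as well, 4 of 5 tested past 2-fold (C1qb, Tyrobp, C1qc and P2ry12), with none of the 9 at 0 in either library. So were 2 of 3 tested markers of oligodendrocyte precursors, Vcan and Pdgfra, whose 5 genes summed to 34.8 and 20.1 TPM with none at 0, and the 5 interneuron markers above. The part of any of these cells in the values of the low members was not tested, and these lists were chosen likewise.

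The machinery that serves the Rabs was detected in part, and its counts past 2-fold are to be read against the 4.46% of all genes. Genes for escort, prenylation and membrane extraction summed to 1046 and 1134 TPM over 8 genes, of which 8 and 7 were detected. Rabac1, a receptor for prenylated Rabs, was the highest with 617.0 and 674.3 TPM, and Gdi2, a GDP dissociation inhibitor, had 124.7 and 120.7 TPM. None of 7 tested lay past 2-fold. Below the 10 CPM limit, and picked out after its values were seen, the escort gene Chml had 264 and 42 reads, a CPM ratio of 7.03 (5.06 to 9.98). Exchange factors were low one by one, 31 genes summing to 292.7 and 277.3 TPM, with 26 and 25 detected. Dennd5a, a DENN-domain exchange factor, had 47.7 and 38.8 TPM, Gapvd1, an exchange factor for Rab5, 32.9 and 24.6, and Ccz1, part of the exchange factor for Rab7, 23.5 and 24.9. None of 21 tested was past 2-fold.

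Activating proteins numbered 38, of which 33 and 35 were detected, and summed to 519.1 and 470.8 TPM. Evi5 had 84.6 and 63.9 TPM, Tbc1d7, better known as a subunit of the TSC complex, 57.4 and 45.8, and Rabgap1l 50.5 and 44.6. Of 27 tested, Tbc1d22b was past 2-fold higher in replicate 2, with 143 and 396 reads. The 44 effectors, of which 34 and 33 were detected, summed to 734.1 and 799.0 TPM. Osbpl1a, a sterol-binding partner of Rab7, led with 195.3 and 264.2 TPM, followed by the Rab5 effectors Rabep1, with 59.96 and 65.57 TPM, and Appl1, with 64.2 and 37.2 TPM. Of 30 tested, Myo5b, a motor that works with Rab11, was past 2-fold higher in replicate 1, with 376 and 141 reads. Lrrk2, a kinase that phosphorylates several Rabs, had 22.1 and 36.4 TPM, and Lrrk1 had no read.

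Rab promoters were compared with those of other genes for their content of CG, the dinucleotide that marks CpG islands. RefSeq promoter windows on GRCm38.p6 were found for 48 of 59 members, and for 44 the window lay within 500 bases of the start of the leading transcript. CG, which reads the same on both strands, occurred at least 10 times in the 250 bases before the start in 32 of 44 members, 72.7%, against 53.4% of 14228 coding genes. Among members detected in both libraries it was 28 of 37, 75.7%, against 79.5% of coding genes detected in both. Rab18, Rab4a, Rab26, Rab27b, Rab38, Rab7b, Rab37, Rab36, Rab30, Rab44 and Rab2a had no entry. The windows of 2 paralog pairs with a wide gap in level are shown, 5′ to 3′ on the gene's strand, with each CG in capitals. They are Rab5a at chr17:53478984-53479233 on the plus strand, Rab5c at chr11:100738216-100738465, Rab39 at chr9:53706233-53706482 and Rab39b at chrX:75578232-75578481, the last 3 on the minus strand.
Rab5a: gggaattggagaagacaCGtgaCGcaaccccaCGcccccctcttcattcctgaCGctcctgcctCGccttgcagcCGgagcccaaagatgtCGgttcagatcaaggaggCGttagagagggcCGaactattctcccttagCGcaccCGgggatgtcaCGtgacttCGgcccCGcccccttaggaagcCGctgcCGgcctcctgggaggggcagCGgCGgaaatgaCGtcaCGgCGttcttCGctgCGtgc
Rab5c: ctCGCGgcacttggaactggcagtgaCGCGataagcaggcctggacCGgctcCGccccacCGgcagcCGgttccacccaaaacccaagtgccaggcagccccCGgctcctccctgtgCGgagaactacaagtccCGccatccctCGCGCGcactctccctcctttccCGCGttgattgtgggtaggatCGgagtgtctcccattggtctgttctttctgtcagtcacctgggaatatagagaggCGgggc
Rab39b: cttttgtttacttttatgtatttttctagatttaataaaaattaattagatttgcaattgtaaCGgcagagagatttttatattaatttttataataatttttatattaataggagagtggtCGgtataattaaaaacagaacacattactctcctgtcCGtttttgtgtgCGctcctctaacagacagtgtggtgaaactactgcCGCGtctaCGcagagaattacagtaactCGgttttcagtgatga
Rab39: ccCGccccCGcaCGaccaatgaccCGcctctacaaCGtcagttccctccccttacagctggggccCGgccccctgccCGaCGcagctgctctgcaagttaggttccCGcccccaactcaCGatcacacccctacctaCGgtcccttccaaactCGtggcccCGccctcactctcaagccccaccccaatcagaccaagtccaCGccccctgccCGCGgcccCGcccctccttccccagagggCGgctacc
Rab5a, the higher of its pair at 123.0 and 131.1 TPM, has 23 CG in its window and Rab5c 18. Rab39b, the higher of the other pair, has 8 CG in a window rich in A and T, whereas Rab39, at 1.10 and 0.31 TPM, has 18. In these pairs the count of CG thus ran with the level in one and against it in the other. Other pairs at least 4-fold apart also had windows for both genes. CG ran against the level for Rab3a and Rab3d (16 and 18) and for Rab33a and Rab33b (7 and 23). The same held for Rab9 and Rab9b (7 and 16) and for Rab6a and Rab6b (24 and 40). It ran with the level for Rab5a and Rab5b (23 and 14) and for Rab3a and Rab3c (16 and 7). Rab1a and Rab1b were equal at 23.

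**Figure D5:**
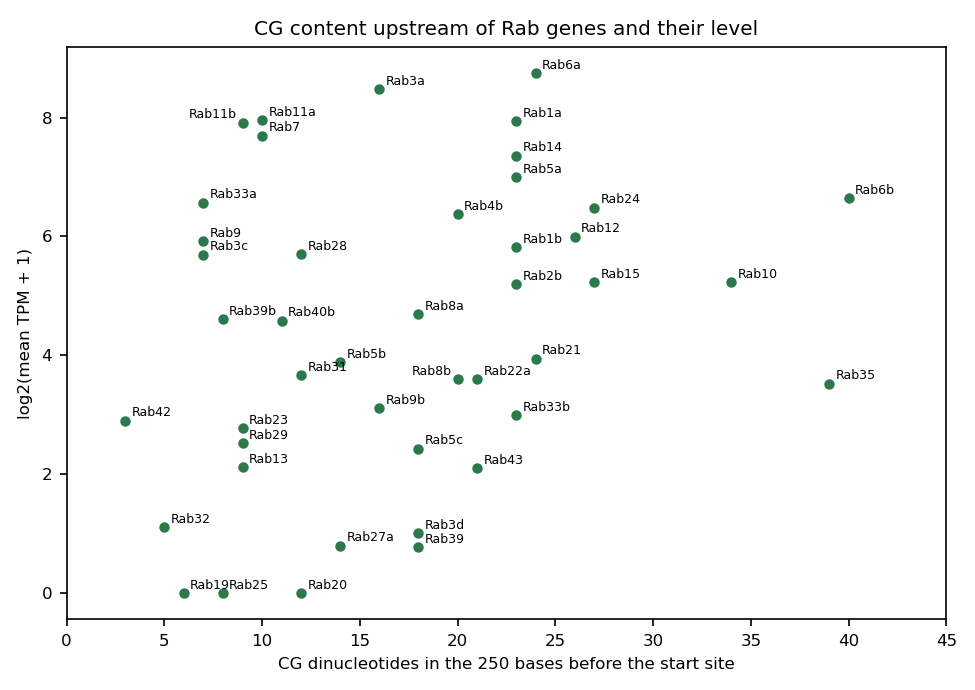
Number of CG dinucleotides in the 250 bases before the start site against log2(mean TPM + 1) for 44 Rab genes. Rab6a and Rab35 both have many CG yet differ in level, while Rab11b and Rab33a are high with under 10.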

How the data were processed

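RNA was measured in 2 libraries. For each, the authors deposited a gene table with expected counts (estimated reads, not normalized), TPM, FPKM and the posterior standard deviation of the count, a signal of how uniquely reads were assigned. A deposited transcript table of replicate 1 gave each transcript's percent of its gene's TPM. Values rest on mm10 and GENCODE M4, per the text files deposited with them. Which aligner, quantifier and strand setting were used is not given in the sources used here. Names, classes and coding positions came from GENCODE M21 on GRCm38 by identifier, which matched 42462 of 43346 genes. Entries with numeric identifiers (26248) and spike-ins were left out of library sizes, though the deposited TPM is scaled over them too.

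Expected counts were rounded, and library sizes were scaled by TMM (edgeR 4.0.16, R 4.3.3), with DESeq2 1.42.0 size factors as an alternative. Ratios between libraries were log2 of (CPM + 1) on these counts at mean CPM of at least 10. Floors of 3 reads and 95% intervals cover counting error only. The ratio and its interval were tested on simulated data. Coding sequences were aligned in Biopython 1.88 (match 2, mismatch -1, gap opening -4, extension -0.5), using the longest complete coding sequence per gene. Python 3.11.15 and pandas 2.3.3 served for the rest.

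The members, the lists and the pairs were chosen with earlier results of these data known. All members may be named. From each list of partner genes the 3 with the highest mean TPM and every gene past 2-fold were named. An item that this rule selects is not reported here. A planned description of the protein sequences was not made, and protein sequences were not used here.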

Additional observations from a re-analysis of the deposited data

How the results depend on the processing

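No paired analysis was possible because there is 1 group with no second condition. The number detected, the share of the 5 highest and the number of pairs with the same order stayed within 1.5 times or the SD under every alternative run on both libraries. For that share, runs on 1 library could not fail, since each of 2 values lies within their SD of the mean. Nor could they for the pairs, as any 1 library gives an order to all 20. Of each library alone, 47 to 51 members were detected, the median was 15.51 to 18.0 TPM and the 5 highest held 40.26% to 43.89%. The median member was 23.0 TPM after TPM was rescaled to coding genes and 28.26 TPM over members at a mean of at least 1 TPM. The count past 2-fold was 2 with library sizes from spike-in totals, where Rab3b joined Rab30 at 1.24, the median of all genes moved from -0.03 to 0.33 and 7.22% of genes were past 2-fold. It was 4 at a mean of at least 1 CPM and 4 with no filter, since more low genes were tested. It has no value without a replicate. Rab8a over Rab8b turned to -0.19 by coding transcripts of replicate 1, an alternative added after the data were seen, as was the use of reads in place of TPM. In reads the number of called pairs was again 15, but Rab3a over Rab3c and Rab8a over Rab8b (0.17 ± 0.39) were lost, while Rab11b over Rab11a and Rab22a over Rab31 were gained. The cause of the spike-in shift was not tested. Depth limits the low members: under about 100 reads, as for Rab32, Rab38 and Rab39, intervals are wide, and 2 libraries give no test of any difference.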
